A study of Arabidopsis thaliana with 54 samples.

Results

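A group of 100 genes stood at its lowest transcript level 6 h after Arabidopsis thaliana rosettes were moved to the cold, and was higher again by 24 h. COL2, a CONSTANS-like B-box transcription factor, had the deepest dip, 11.1-fold, and the median over the members was 2.85-fold, both on a scale of CPM + 1, where CPM is a read count scaled to its library's total. The other genes include B-box and photoperiod regulators, negative and positive regulators of abscisic acid (ABA) signalling, and calcium-linked protein kinases. They also include nitrogen and sulfur genes, and genes of a family of small proteins with the domain DUF584. Members were chosen by their measured levels in these same libraries, with log2(CPM + 1) of each gene averaged over the 9 libraries of a time. Genes were kept if the lower of the means at 0 h and 24 h was at least log2(6) and if 6 h was the lowest of the 6 times. They were ranked by the lower of these means minus the 6 h mean, here called the dip. Of 36632 genes in the table, 10419 reached the level required at 0 h and 24 h, 1619 of those had 6 h lowest, and the first 100 are the members.

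Each library is RNA from whole rosettes of the accession Col-0, pooled from 5 samples. The 54 libraries form 18 groups of 3, from 3 conditions and 6 times, namely 0 h and then 2, 4, 6, 12 or 24 h in the cold, and each of 3 independent experiments gave 1 library per group. The first cold exposure, at 4 °C, came at 28 days of age in C28P and at 35 days in C35P, the control for development. C28PLT plants had spent 3 days at 4 °C from day 28, then 7 days back in the warm, and then met the cold again. C35P controls for the added week of growth and not for the 3 days of priming. All groups share warm growth at 20 °C by day and 16 °C by night, and a day of 16 h. They also share a drop in light from 200 to 90 µmol quanta per square metre and second on entering the cold. By the labelled hours, 24 h alone of the later times has the time of day of 0 h, and 2 to 12 h were sampled in the cold only. Cold, dimmer light and time of day therefore cannot be told apart in any change between 0 h and 2 to 12 h. In whole rosettes, fewer cells of a type and less RNA per cell cannot be told apart either.

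Library totals ran from 23408399 to 34452480 counts, and all 100 members were among the 20720 genes with enough counts to be tested. Markers of leaf mesophyll summed to between 56900 and 86900 CPM in every library, while 1 of 6 root and root-hair markers and 1 of 5 floral markers reached a median of 1 CPM. The C28P library of the first experiment at 0 h stood apart from its group. There PRR5, a clock gene of the light period, was at 75.9 CPM, against 0.937 and 0.854 CPM in the other C28P libraries of that time. In this library 78 of the 100 members were lower than in both others of its group, which held for 27.3% of all tested genes. The lowest 0 h value of a member lay in this library for 55 members and in the C35P library of the same experiment for 26. The labels give no clock time for single libraries, and whether this one was taken at the same hour as the others was not tested. Without the C28P library, the rule picked 94 of the 100 members again.

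B-box proteins are zinc-finger regulators of photoperiodic flowering and light-dependent growth, and several of them bind CONSTANS or are built like it. ABA, a hormone of water deficit, acts by blocking phosphatases of type 2C, which otherwise hold SnRK2 kinases inactive, and the freed kinases activate bZIP factors that bind ABA-responsive elements (ABREs). In leaves many genes of these pathways are read out at set hours of the day, since the circadian clock acts on their promoters through sequences such as the evening element.

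An evening element, a G-box or an ABRE was found upstream of 3 of the 8 photoperiod members and 3 of the 8 ABA and drought members, and the sequences of 5 of these genes are shown for that reason. The share of all tested genes with any of these elements was not counted, so whether these counts exceed it is not known. The sixth of these members is RD20, with a G-box, while BBX16, HAI1, CDF1, HB-12 and BBX32, each with a deeper dip than AFP1 and HAB1, hold none of these elements in the same window. They are the 300 bases before the annotated start of each gene, read from the RefSeq annotation of TAIR10.1, at chr3:489468-489767 on the minus strand for COL2 (AT3G02380), chr4:8708541-8708840 on the plus strand for BBX30 (AT4G15248), chr5:19308927-19309226 on the plus strand for NF-YB2 (AT5G47640), chr1:26038605-26038904 on the plus strand for AFP1 (AT1G69260) and chr1:27389648-27389947 on the plus strand for HAB1 (AT1G72770). Capitals mark an evening element in COL2, a G-box in BBX30, G-boxes and an ABRE that shares bases with a G-box in NF-YB2, and an ABRE in AFP1 and HAB1.
COL2: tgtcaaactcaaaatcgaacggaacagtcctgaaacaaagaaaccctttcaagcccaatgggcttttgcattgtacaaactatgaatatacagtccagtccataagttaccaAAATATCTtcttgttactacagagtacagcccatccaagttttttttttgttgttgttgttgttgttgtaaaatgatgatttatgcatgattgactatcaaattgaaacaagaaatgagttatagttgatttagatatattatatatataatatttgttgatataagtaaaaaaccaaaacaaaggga
BBX30: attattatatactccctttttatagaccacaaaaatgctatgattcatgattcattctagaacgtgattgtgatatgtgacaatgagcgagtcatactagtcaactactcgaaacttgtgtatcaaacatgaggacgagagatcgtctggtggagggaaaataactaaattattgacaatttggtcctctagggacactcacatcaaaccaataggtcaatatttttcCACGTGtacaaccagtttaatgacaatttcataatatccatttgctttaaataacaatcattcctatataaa
NF-YB2: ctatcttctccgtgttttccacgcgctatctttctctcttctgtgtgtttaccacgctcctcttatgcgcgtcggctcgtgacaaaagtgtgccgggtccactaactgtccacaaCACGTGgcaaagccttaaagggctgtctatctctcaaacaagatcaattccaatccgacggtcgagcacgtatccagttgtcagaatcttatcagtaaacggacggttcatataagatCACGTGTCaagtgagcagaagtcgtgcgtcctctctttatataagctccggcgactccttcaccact
AFP1: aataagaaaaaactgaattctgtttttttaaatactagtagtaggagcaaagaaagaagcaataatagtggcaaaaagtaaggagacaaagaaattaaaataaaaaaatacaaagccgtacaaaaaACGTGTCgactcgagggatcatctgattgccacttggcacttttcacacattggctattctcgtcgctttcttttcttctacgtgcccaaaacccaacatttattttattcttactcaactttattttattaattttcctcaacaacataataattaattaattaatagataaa
HAB1: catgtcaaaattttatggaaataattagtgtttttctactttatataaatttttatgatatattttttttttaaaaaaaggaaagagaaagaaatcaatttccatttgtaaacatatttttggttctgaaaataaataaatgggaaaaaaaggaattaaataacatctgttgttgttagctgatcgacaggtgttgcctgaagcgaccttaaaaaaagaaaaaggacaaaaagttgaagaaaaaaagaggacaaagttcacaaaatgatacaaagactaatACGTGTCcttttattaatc
The evening element of COL2 begins 188 bases before the start, the G-box of BBX30 72 bases, the ABRE of AFP1 174 bases and that of HAB1 19 bases. Among the 12 motifs searched on both strands, the ABRE ACGTGTC was present in 9.09% of the windows of the 99 protein-coding members and in 4.65% of those of 19731 protein-coding genes tested. The auxin response element TGTCTC was present in 21.2% and 12.7%, the TATCCA sugar element in 20.2% and 16.8%, the W-box core TTGAC in 56.6% and 50.1%. The G-box CACGTG was present in 10.1% and 8.14%, the morning element core CCACAC in 9.09% and 7.42%, and the heat shock element core GAANNTTC in 13.1% and 11.4%. Shares in members were no higher than in all genes for the CCA1 binding site AAAAATCT (8.08% and 8.1%), the ABRE variant ACGTGGC (4.04% and 4.29%) and the evening element AAATATCT (3.03% and 5.95%). They were lower for the CRT/DRE core CCGAC, the site of CBF cold factors (7.07% and 15.1%), and the site II core GGCCCA (2.02% and 17.5%). G-box and ABRE letters can overlap, as in NF-YB2, and a match of letters is not evidence that a factor binds there.

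The levels that chose the members are given as a description, without a test. The median over members of the median CPM was 29.9 at 0 h, 22.1 at 2 h, 9.67 at 4 h, 6.26 at 6 h, 15.9 at 12 h and 25.5 at 24 h. Most of the fall was thus complete by 4 h, where the median member had covered 70.2% of its distance from 0 h to 6 h. By 12 h the median member had regained 71.5% of its dip, and 15 members were at or above the lower of their 0 h and 24 h means. Dips ran from 1.19 to 3.48 on the log2 scale with a median of 1.51. The last members by rank were AT2G41870, a remorin, at 1.192, and AT3G45210, of the DUF584 family, at 1.189, and the next genes outside were AT5G15950, an adenosylmethionine decarboxylase, at 1.186, and AT1G33260, a protein kinase, at 1.178. At 24 h, 46 members were above and 54 below their 0 h mean, so the return was not always to the starting level. The highest of the 6 times was 0 h for 47 members, 24 h for 40, 2 h for 11 and 12 h for 2.

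**Figure D1:**
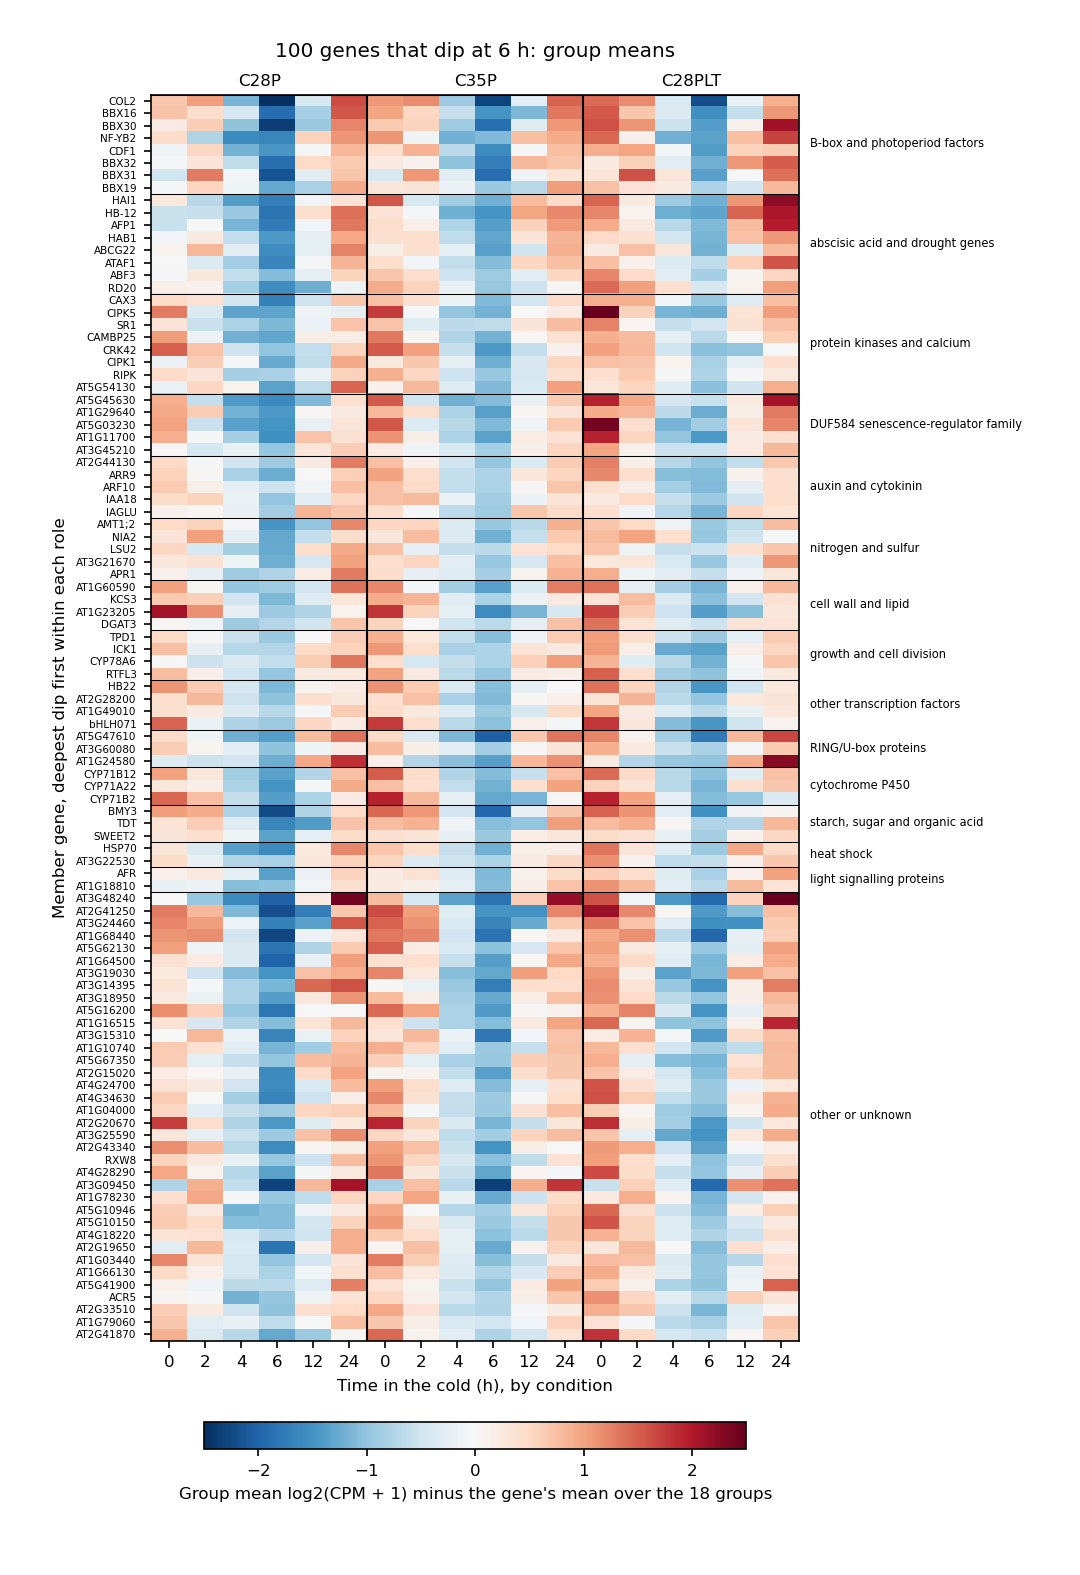
Group means of log2(CPM + 1) for the 100 members (rows, by role) in 18 groups (columns, 6 times in each of 3 conditions, n = 3 libraries), each minus the gene's mean over the groups. The blue column at 6 h is seen in each condition, with a paler one at 4 h.

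The dip was present in each condition. Taken alone, C28P had 6 h as the lowest mean in 92 members, C35P in 95 and C28PLT in 94, and the median dips were 1.51, 1.48 and 1.54 on the log2 scale. In the 9 time series of a single condition and experiment, 94 members had a dip above 0 in all 9. Of the members, 30 had 6 h lowest in all 9 series, and the smallest number of series with 6 h lowest was 4, reached by NF-YB2, CIPK5 and ICK1, whose 4 h and 6 h values lie close together. Median dips per series ran from 1.17 in the third experiment of C28PLT to 1.86 in the first experiment of the same condition. All 9 values at 6 h lay below all 9 values at 0 h in 73 members (4.28% of all tested genes), and below all 9 at 24 h in 82 (3.68%). They lay below all 9 values at 2 h in 70 members (3.08%), at 12 h in 42 (1.31%) and at 4 h in 9 (0.222%). The rule used these contrasts, so the counts describe how the chosen genes are spread and nothing more.

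The same holds for the fitted contrasts between times. With edgeR's quasi-likelihood test and a Benjamini-Hochberg adjusted p under 0.05, 94, 97 and 95 members were called lower at 6 h than at 0 h in C28P, C35P and C28PLT, where 9.71%, 8.57% and 8.22% of all tested genes were. At 24 h against 6 h, 93, 85 and 91 members were called higher, against 4.95%, 4.52% and 7.17% of all tested genes. At 24 h against 0 h, 9, 1 and 4 members were called higher and 16, 23 and 15 lower, where 13.9%, 14.7% and 14.6% of all genes were called higher and 15.3%, 14.0% and 11.3% lower. Without the C28P library that stood apart at 0 h, an alternative added after seeing the data, the C28P counts became 2 members higher and 22 lower, against 16.2% and 16.9% of all genes.

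B-box and photoperiod factors formed the group with the deepest median dip, 2.12 on the log2 scale over 8 members. COL2 had CPM values at 0 h with a lowest of 33.5, a median of 61.2 and a highest of 72.5, and at 2 h of 36.2, 54.6 and 91.6. At 4 h its values were 7.81, 12.5 and 24.7, at 6 h 1.78, 3.93 and 9.13, and at 12 h 14.2, 20.5 and 29.7. At 24 h they were back at 36.2, 70.6 and 90.9. The values at 6 h overlapped those at 4 h and lay below every value of 0, 2, 12 and 24 h, and 6 h was lowest in all 9 series. In single libraries of experiments 1 to 3, COL2 at 6 h was 1.89, 3.93 and 2.73 CPM in C28P, 1.78, 4.01 and 9.13 CPM in C35P and 4.45, 2.33 and 7.98 CPM in C28PLT. The conditions overlapped at that time.

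BBX16, another CONSTANS-type B-box factor, had a 6.54-fold dip, from a median of 62.2 CPM at 0 h to 6.57 CPM at 6 h. It was slow to return, with 29.1% of the dip regained at 12 h (median 13.5 CPM) before 63.7 CPM at 24 h. BBX30 and BBX31 are small B-box proteins, known as microProteins that bind CONSTANS, and they differed in their early hours. BBX30 had a median of 29.4 CPM at 0 h, 26.0 at 2 h, 9.21 at 4 h and 4.25 at 6 h, with ranges of 9.42 to 92.2 at 0 h and 1.26 to 11.2 at 6 h that overlap. BBX31 stood higher at 2 h than at 0 h in every series, with medians of 25.8 CPM at 0 h, 94.8 at 2 h and 39.6 at 4 h, and was then at 10.8 CPM at 6 h. At 4 h BBX31 thus had yet to pass below its 0 h mean. BBX32, a repressor of light-dependent seedling development, had a 6 h median of 7.86 CPM against 31.3 CPM at 0 h, and its 12 h median of 55.9 CPM lay between that and the 64.2 CPM of 24 h. BBX19, a repressor of flowering, had 15.6 CPM at 0 h, 4.45 CPM at 6 h, 5.78 CPM at 12 h and 19.9 CPM at 24 h.

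CDF1, a Dof repressor of CONSTANS transcription, and NF-YB2, a subunit of the nuclear factor Y complex that works with CONSTANS, dipped with the B-box genes. CDF1 was at a median of 23.1 CPM at 0 h, 4.36 at 6 h and 26.6 at 24 h. NF-YB2 had its low early, with 75.7 CPM at 0 h, 12.6 at 4 h, 13.6 at 6 h and 64.9 at 12 h, and 98.9% of its fall was complete by 4 h. At 6 h its C35P values of 16.3, 18.8 and 15.4 CPM lay just above those of C28PLT (13.3, 13.6 and 15.3) and C28P (9.85, 13.3 and 10.8). All 8 genes of this group were higher at 24 h than at 0 h as a mean of 9 libraries, by 0.24 (NF-YB2) to 1.00 (BBX31) on the log2 scale.

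The B-box family as a whole did not share this course. Of 27 B-box genes tested, 8 had 6 h as the lowest of the 6 times, while 9 had it as the highest, and 14.6% of all tested genes had 6 h lowest. BBX8 stood 5.37 higher at 6 h than at 0 h on the log2 scale, LZF1 4.95, COL9 4.84 and BBX13 3.53. Of the 21 tested B-box genes outside the group, 14 were higher and 7 lower at 6 h than at 0 h. These are means over the 9 libraries of each time and were not tested between genes.

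**Figure D2:**
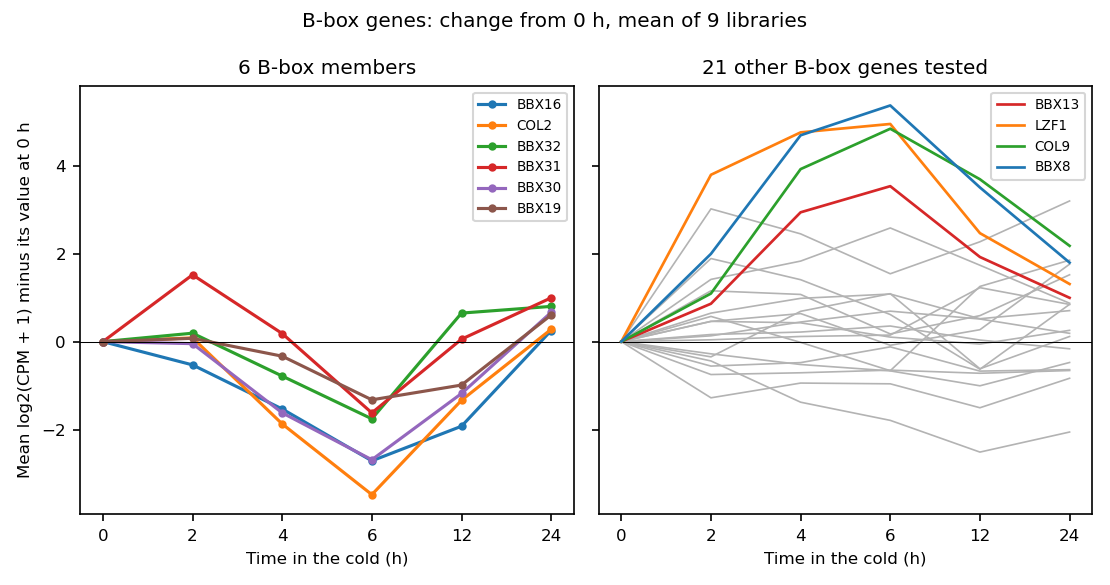
Mean log2(CPM + 1) over 9 libraries at each time, minus the 0 h value, for the 6 B-box members (left) and the 21 other B-box genes tested (right). The members are lowest at 6 h, where BBX8, LZF1, COL9 and BBX13 are between 3.53 and 5.37 above 0 h. The other genes are in grey.

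Genes of ABA signalling and drought made up 8 members, on both sides of the pathway. HAI1 and HAB1 encode type 2C phosphatases that hold ABA signalling down, and AFP1 encodes a protein that binds the ABA factor ABI5 and limits it. HAI1 had a median of 11.52 CPM at 0 h (2.54 to 32.9), 1.96 at 4 h, 1.95 at 6 h (0.315 to 4.01), 8.77 at 12 h and 13.9 at 24 h (2.21 to 40.9). Its values at 24 h were spread widely, with 2.21, 11.9 and 13.9 CPM in C28P, 2.38, 27.4 and 7.46 CPM in C35P and 40.5, 40.9 and 16.3 CPM in C28PLT. At 24 h C28PLT lay above C28P, a pair that was not tested, and overlapped C35P. Across all libraries the HAI1 values of 0 h and 6 h overlapped.

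HAB1 was steadier, at 33.6 CPM at 0 h (19.3 to 46.2), 9.41 at 6 h (6.85 to 15.0) and 49.3 at 24 h (37.0 to 78.9), with no overlap of 6 h with either. AFP1 was at 10.6 CPM at 0 h (1.03 to 16.8), 1.78 at 6 h (0.419 to 2.93) and 21.1 at 24 h (6.67 to 38.4). Its 0 h values in experiments 1 to 3 were 1.03, 6.49 and 5.48 CPM in C28P, 2.51, 11.46 and 16.8 CPM in C35P and 13.5, 11.6 and 10.6 CPM in C28PLT. The lowest of them is in the library that stood apart. ABF3, a bZIP factor that activates ABA genes, had 14.7 CPM at 0 h, 4.15 at 6 h and 11.2 at 24 h.

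HB-12, a homeodomain-leucine zipper factor induced by drought and ABA, and ATAF1, a NAC factor, were above their 0 h level at 24 h by 1.19 and 0.66 on the log2 scale. HB-12 regained 133% of its dip by 12 h, with a median of 26.7 CPM at 0 h, 5.83 at 6 h, 35.2 at 12 h and 63.2 at 24 h. RD20, a caleosin of lipid droplets used as a drought marker, recovered late, with 96.6 CPM at 0 h, 29.3 at 6 h, 34.4 at 12 h and 75.5 at 24 h. ABCG22, a transporter of guard cells that affects transpiration, was higher at 2 h (49.9 CPM) than at 0 h (35.7 CPM) before its low of 14.4 CPM. Of 23 tested genes on a list of ABA genes, 4 are members (HAI1, HAB1, AFP1 and ABF3). At 6 h against 0 h the other 19 had 6 genes called higher and 0 lower in C28P, 7 and 1 in C35P and 11 and 1 in C28PLT (edgeR). Of all tested genes, 8.38%, 8.92% and 9.7% were called higher and 9.71%, 8.57% and 8.22% lower. Of 7 tested phosphatases of the same clade as HAI1 and HAB1, 3 met the rule before ranking, as did 1619 of all genes, where 20720 were tested. The clade was looked at because 2 of the 3 are members, so this is a description.

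**Figure D3:**
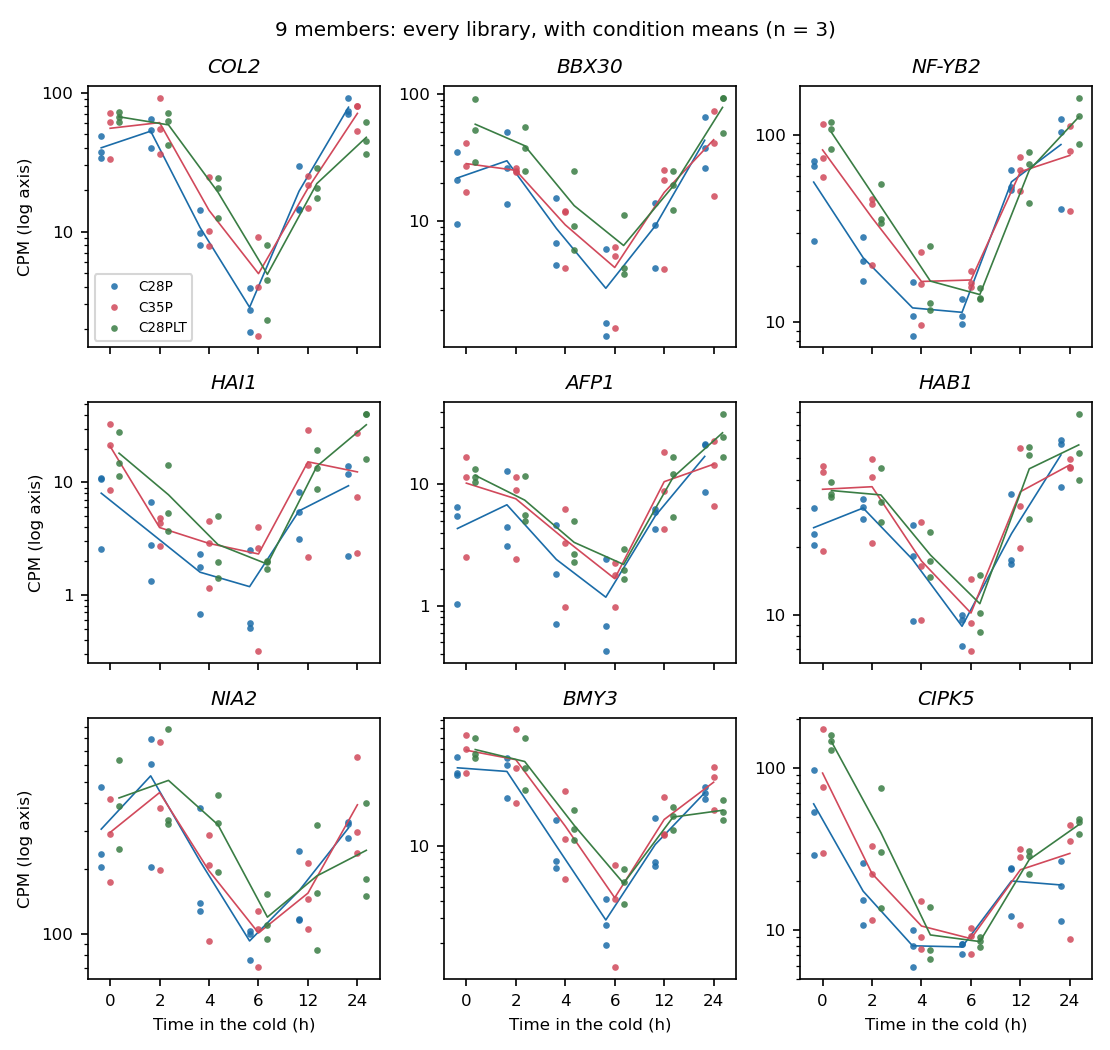
CPM on a log axis in every library (points) with the mean of each condition (lines, n = 3) for 9 members against time in the cold. COL2 runs from a median of 61.2 CPM at 0 h to 3.93 CPM at 6 h and 70.6 CPM at 24 h, and the 3 conditions overlap at 6 h in every gene shown except NF-YB2.

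Protein kinases and calcium-linked genes made up 8 members. CIPK5, SR1 (also CIPK14) and CIPK1 are kinases that calcium sensors of the CBL family bind and activate. Of 23 tested CIPK genes, 5 met the rule before ranking, as did 1619 of all genes, where 20720 were tested. This family too was looked at because 3 of the 5 are members. CIPK5 dropped early and stayed low, with medians of 97.4 CPM at 0 h, 22.1 at 2 h, 8.00 at 4 h, 8.25 at 6 h, 24.2 at 12 h and 35.5 at 24 h. At 0 h its values were 29.2, 53.1 and 97.4 CPM in C28P, 29.9, 76.0 and 172 CPM in C35P and 159, 130 and 146 CPM in C28PLT, where C28PLT overlapped C35P but lay above C28P. C28PLT was not tested against C28P, a pair that differs in age as well as in priming. CIPK1 took the opposite early course, at 49.2 CPM at 0 h, 57.4 at 2 h and 13.9 at 6 h. CAX3, a vacuolar exchanger of calcium for protons, was at 60.0 CPM at 0 h, 10.46 at 6 h, 24.7 at 12 h and 51.5 at 24 h. CAMBP25, a calmodulin-binding protein, was at 42.4 CPM at 0 h, 9.01 at 6 h and 26.7 at 24 h. RIPK, a receptor-like cytoplasmic kinase of immunity, the receptor-like kinase CRK42 and a calcium-binding phosphatase family gene, AT5G54130, complete the group with dips of 1.24 to 1.39.

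Nitrogen and sulfur genes made up 5 members. NIA2, the main nitrate reductase of leaves, was at a median of 289 CPM at 0 h, 381 at 2 h, 208 at 4 h, 103.4 at 6 h, 146 at 12 h and 296 at 24 h. Its 6 h values ran from 70.4 to 154 CPM and those at 0 h from 174 to 635 CPM, without overlap. The ammonium transporter AMT1;2 and AT3G21670 (NPF6.4, of the nitrate transporter family) followed at 22.4 and 87.6 CPM at 6 h, against 62.5 and 240 CPM at 0 h. AMT1;2 had regained 20.5% of its dip at 12 h. The sulfur genes LSU2, named for its response to low sulfur, and APR1, an enzyme of sulfate reduction, had 6 h medians of 29.0 and 17.9 CPM, against 78.5 and 48.2 CPM at 0 h. On the list of glucosinolate and sulfur genes these are 2 members of 27 tested, and on the nitrate and phosphate list NIA2 is 1 of 24.

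Of carbon metabolism and transport, BMY3 (also BAM9, of the beta-amylase family of starch breakdown) had 43.5 CPM at 0 h, 4.095 at 6 h, 12.8 at 12 h and 21.6 at 24 h, a dip of 2.31 on the log2 scale. SWEET2, a vacuolar sugar carrier, was at 138 CPM at 0 h, 51.0 at 6 h and 135 at 24 h. TDT, the vacuolar malate carrier, was the slowest member to return. It stood at 241 CPM at 0 h, 62.0 at 6 h, 71.9 at 12 h and 267 at 24 h, with 5.99% of the dip regained by 12 h. At the other end AT3G09450, annotated as a fusaric acid resistance family protein, was at 9.15 CPM at 0 h, 26.0 at 2 h, 2.16 at 6 h, 26.5 at 12 h and 55.6 at 24 h, and had regained 212%.

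**Figure D4:**
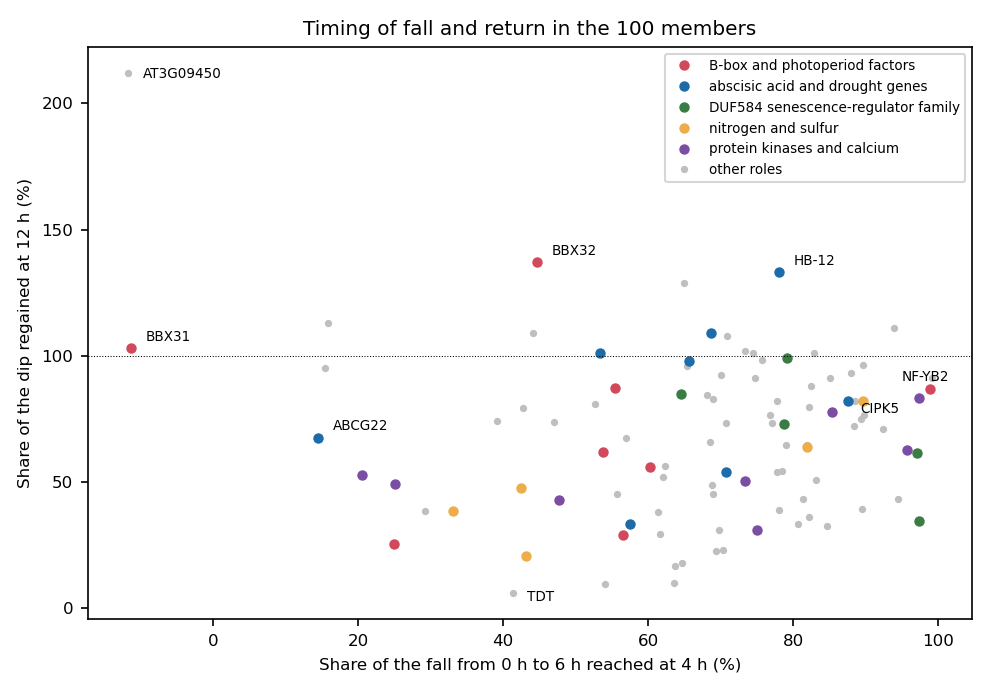
Share of the fall from 0 h to 6 h that was reached at 4 h (horizontal, %) and share of the dip regained at 12 h (vertical, %) for the 100 members, coloured for 5 roles. Medians are 70.2% and 71.5%, BBX31 and AT3G09450 lie left of 0 because they were still above 0 h at 4 h, and TDT lies lowest. Both axes use the same 6 h mean.

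The DUF584 family, annotated as senescence regulators, had 5 members, and 10 of its 14 tested genes had 6 h lowest, against 14.6% of all tested genes. The family was looked at because members had been seen in it, so this is a description. AT5G45630 led with a dip of 2.12, followed by AT1G29640 at 1.96, AT5G03230 at 1.89, AT1G11700 at 1.82 and AT3G45210 at 1.19. AT5G45630 varied widely between libraries, with CPM values at 2 h of 2.64, 12.3 and 0.775 in C28P, 0.430, 6.61 and 9.09 in C35P and 6.11, 4.06 and 59.5 in C28PLT. The third experiment of C28PLT was high there, and the conditions overlapped. AT5G03230 and AT5G45630 had completed 97.1% and 97.4% of their fall by 4 h. Outside the members, AT4G21970 and AT3G15040 were lowest at 0 h.

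In auxin and cytokinin signalling, ARR9, a response regulator that limits cytokinin signalling, was at 66.8 CPM at 0 h, 16.9 at 6 h and 52.0 at 24 h. AT2G44130 (KMD3), an F-box protein of the KISS ME DEADLY group, was at 15.7 CPM at 0 h, 3.64 at 6 h and 16.9 at 24 h. The auxin repressor IAA18, the auxin response factor ARF10 and IAGLU, an enzyme that conjugates auxin to glucose, had dips of 1.356, 1.403 and 1.294. Genes of growth included ICK1, an inhibitor of cyclin-dependent kinases, at 25.3 CPM at 0 h, 6.06 at 4 h, 6.29 at 6 h and 17.1 at 24 h. RTFL3 (a small peptide of the ROTUNDIFOLIA type), CYP78A6 (a cytochrome P450 that promotes organ growth) and TPD1 (a secreted ligand best known from anthers) dipped by 1.197, 1.283 and 1.593. Cytochromes P450 of family 71 were CYP71B12, CYP71A22 and CYP71B2, and CYP71B2 was still 1.81 below its 0 h level at 24 h.

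Light signalling and heat shock genes were few. AFR, an F-box protein of phytochrome A signalling, was at 78.1 CPM at 0 h, 32.0 at 6 h and 101.4 at 24 h, and AT1G18810, similar to phytochrome kinase substrates, dipped by 1.31. HSP70, a heat shock chaperone, varied widely at 0 h, from 8.40 to 104 CPM with a median of 22.8, and its 6 h range of 2.87 to 16.0 CPM overlapped it. Of RING-type proteins, AT5G47610 was at 26.5 CPM at 0 h, 4.45 at 6 h and 49.3 at 24 h, and AT1G24580 at 25.8, 12.9 and 145 CPM. Cell wall and lipid genes had 4 members (AT1G60590, AT1G23205, KCS3 and DGAT3), and none of these was higher at 24 h than at 0 h. KCS3 is an enzyme of fatty acid elongation and DGAT3 one of oil synthesis.

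Further deep dips belong to genes of little known function. AT3G48240, annotated as an octicosapeptide/Phox/Bem1p protein, came next to COL2 with 6.66-fold and had CPM values at 24 h of 16.2, 46.3 and 35.9 in C28P, 9.45, 59.0 and 28.9 in C35P and 69.2, 43.8 and 53.2 in C28PLT. All of its 6 h values were at or below 1.05 CPM, near the pseudocount of 1, so its dip is understated on the log2(CPM + 1) scale. AT2G41250, a haloacid dehalogenase-like hydrolase, and AT3G24460, a Serinc-domain protein, had dips of 2.58 and 2.57 and had regained 9.84% and 9.47% by 12 h. AT1G68440, an uncharacterized protein, was at 185 CPM at 0 h, 194 at 2 h, 19.9 at 6 h and 115 at 24 h. AT5G62130 (a Per1-like protein), AT1G64500 (a glutaredoxin), AT3G19030, AT3G14395 and AT3G18950 (a WD40 repeat protein) had dips of 1.93 to 2.06. AT1G60590, a pectin lyase-like protein, had a dip of 2.28. In 51 members the symbol is the locus tag alone.

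Lists of other pathways held few members. Of 27 tested light signalling factors 4 are members (COL2, BBX16, BBX30 and BBX31), of 20 cytokinin genes 1 (ARR9), of 28 starch and sugar genes 1 (BMY3), of 15 heat shock genes 1 (HSP70) and of 12 touch and calcium genes 1 (CAX3). None of the 7 morning clock genes, 15 day and evening clock genes, 15 CBF and cold regulators, 18 COR and LEA genes, 21 flowering genes or 19 light harvesting and Rubisco genes is a member. The flowering list does not hold BBX19, CDF1 or NF-YB2, which are members and are described above as acting on flowering or CONSTANS. The lists were written with earlier results of these data in view. Members lie on all chromosomes, with 28, 17, 21, 11 and 22 of the 99 protein-coding genes on chromosomes 1 to 5. Their median transcript length was 1653 bases, against 1717 for all protein-coding genes tested, and their GC content 40.9% against 41.3%. Reads of 3 members may be shared with a near-identical copy (AT3G15310, a pseudogene, CYP71A22 and CYP71B12). In all, 22 overlap an annotated neighbour, 19 of them one on the other strand (COL2, NF-YB2, BMY3, AFP1, ARR9, ATAF1 and ABF3 among them), and the strand setting of the counting is not given in the sources used here.

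The comparisons that the rule did not use are those between conditions. The difference of C28PLT and C35P sets plants in their second cold beside the developmental control in its first, and the difference of C35P and C28P sets plants of 2 ages side by side. No member was called in either comparison at any time, with edgeR's quasi-likelihood test and Benjamini-Hochberg adjustment over 20720 genes. Of all genes, 1 (0.00483%) was called between C28PLT and C35P at 0 h, 5 (0.0241%) between C35P and C28P at 0 h, and 0 (0%) at each later time in both. DESeq2 called 0 members as well, where it called 49 and 51 of all genes at 0 h. At an unadjusted p under 0.05, 7, 1, 0, 0, 0 and 1 members differed between C28PLT and C35P at the 6 times in order, where 3.63%, 0.849%, 0.888%, 0.55%, 0.994% and 3.23% of all genes did. Between C35P and C28P these were 0, 0, 3, 3, 0 and 0 members, against 2.2%, 1.57%, 1.21%, 2.55%, 1.06% and 1.64%. DESeq2 had 8, 2, 0, 0, 0 and 4 members in the first comparison, where 843, 239, 269, 165, 293 and 804 of all genes did. In the second it had 0, 0, 3, 5, 1 and 0 members, where 541, 433, 374, 666, 295 and 465 of all genes did. At 0 h DESeq2 gave an adjusted p to 21383 genes in the first comparison and to 18593 in the second, and to 29205 genes at the later times. Its unadjusted counts are over all genes with a p-value. These edgeR and DESeq2 fits treat the libraries as unpaired. With the experiment as a term (replicate block), edgeR again called 0 members, and at an unadjusted p under 0.05 it had 12, 4, 2, 0, 1 and 15 members in the first comparison, where 4.41%, 1.48%, 1.19%, 0.738%, 1.51% and 5.25% of all genes did. In the second it had 1, 0, 4, 7, 2 and 0 members, against 2.6%, 2.06%, 1.64%, 3.67%, 1.48% and 2.14%.

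These tests cannot show that the conditions acted alike. The half-width of the 95% interval of a member's difference had a median of 0.80 on the log2 scale at 0 h, with 3 libraries a group. The smallest unadjusted p between C28PLT and C35P at 0 h belonged to KCS3. It was at 81.0, 69.0 and 55.2 CPM in C28PLT and 112, 126 and 76.6 CPM in C35P, which overlap. Its difference was -0.66 ± 0.24 (SE, n = 3 and 3, 95% interval -1.15 to -0.18, edgeR adjusted p = 0.934), and ran from -0.85 to -0.44 when an experiment or a library was left out. At 24 h AT5G41900, an alpha/beta-hydrolase, was at 48.7, 45.8 and 28.9 CPM in C28PLT and 26.9, 40.5 and 21.2 CPM in C35P, which overlap too, and differed by 0.64 ± 0.32 (SE, interval 0.01 to 1.28, edgeR adjusted p = 0.818). It was 0.30 without the first experiment and 1.105 without the second.

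For the deepest member, COL2, the difference at 6 h between C28PLT and C35P was 0.07 ± 0.45 (SE, n = 3 and 3, 95% interval -0.84 to 0.98, edgeR adjusted p = 1). For AT2G19650, a C1-domain protein, C35P was above C28P at 6 h by 1.26 ± 0.41 (SE, interval 0.43 to 2.09, edgeR adjusted p = 0.974), the smallest unadjusted p among members at that time. Without the C35P library of the third experiment this was 0.46, and without that of the first 1.62. Median differences over the 100 members between C28PLT and C35P were 0.16, 0.13, 0.09, 0.20, 0.05 and 0.33 at the 6 times on the log2 scale, where the median over all tested genes lay between -0.02 and 0.05. Between C35P and C28P they were 0.26, 0.13, 0.03, 0.25, 0.01 and -0.05. These medians moved when an experiment was left out, and the 0.33 at 24 h was 0.14 without the first experiment and 0.54 without the second. Without the C28P library that stood apart, the 0 h value of 0.26 became 0.04, and 0 members were called. Members share libraries, so a shift of the whole group between libraries moves all of them together, and no test was made of these medians.

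**Figure D5:**
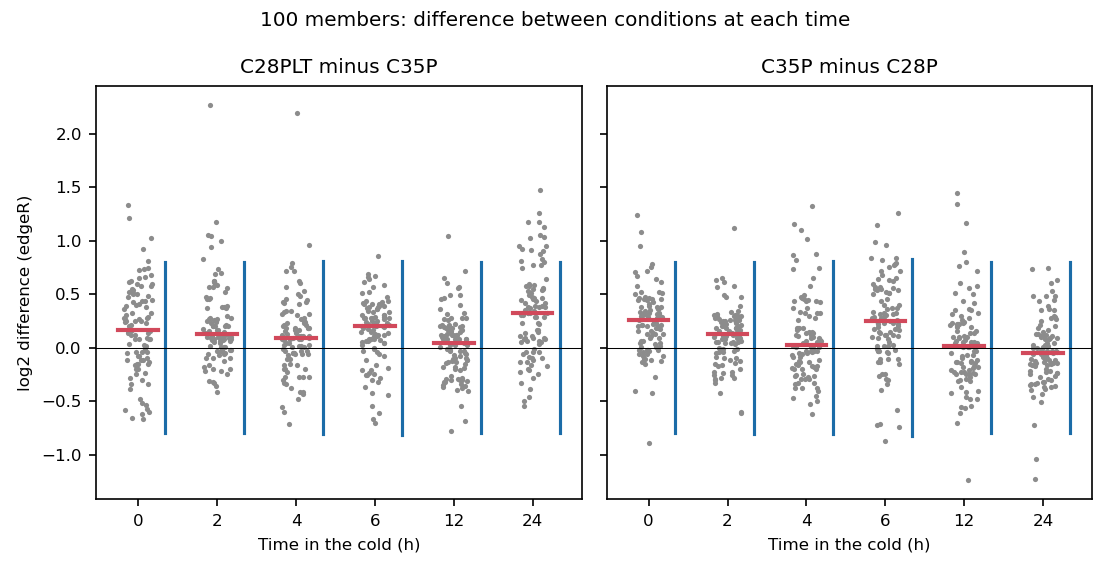
Fitted log2 differences of the 100 members (grey points) between C28PLT and C35P (left) and between C35P and C28P (right) at each time. Red bars are medians over members, from -0.05 to 0.33, and blue lines show plus and minus the median half-width of a member's 95% interval, 0.80 at 0 h. No member was called in any of the 12 comparisons (edgeR, n = 3 per group).

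The size of the fall and of the return was compared as a difference of responses. For the change from 0 h to 6 h, 0 members were called for C28PLT minus C35P and 0 for C35P minus C28P, as were 0 (0%) of all genes. With edgeR, 1 and 0 members had an unadjusted p under 0.05 (1.55% and 1.49% of all genes). DESeq2 had 1 and 0 members (396 and 373 of 29205 genes), and the replicate block 4 and 0 (2% and 1.8% of all genes). The median half-width of the 95% interval was 1.14 on the log2 scale, and the median differences were -0.04 and 0.06. The second became 0.30, with 0 members called, without the C28P library that stood apart at 0 h. CRK42 had the smallest p, with a fall that was smaller by 1.18 ± 0.50 (SE, interval 0.165 to 2.198, edgeR adjusted p = 1) in C28PLT. For the change from 6 h to 24 h, 0 members and 0 (0%) of all genes were called in both. With edgeR, 2 members in each had an unadjusted p under 0.05 (0.941% and 1.21% of all genes). DESeq2 had 2 in each (266 and 336 of 29205 genes), and the replicate block 3 and 2 (1.16% and 1.53% of all genes). The median difference was 0.25 for C28PLT minus C35P and -0.30 for C35P minus C28P. The first became 0.001 without the first experiment, and the second -0.04 without the third experiment and -0.57 without the second. ICK1 led the first, with a return larger by 1.21 ± 0.51 in C28PLT (SE, interval 0.19 to 2.23, edgeR adjusted p = 1). This was 0.63 without the first experiment and 1.85 without the second.

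A contrast averaged over the 6 times, added after the single times had been seen, has narrower intervals, with a median half-width of 0.327. It treats the libraries of an experiment at the 6 times as separate replicates, so these intervals do not measure the spread between experiments. The averaged contrast also called 0 members (0% of all genes) in both comparisons, with edgeR and with DESeq2. The difference of C28PLT and C35P was above 0 in 80 members, with a median of 0.17, where the median over all tested genes was 0.003. The members' median was 0.08 without the first experiment and 0.26 without the second. Members share libraries, so the 80 are not independent of each other, and no test was made of this count. With edgeR, 11 members had an unadjusted p under 0.05 (9.8% of all genes), and with DESeq2 14 (2288 of 29205 genes). These were 26 with the replicate block (12.9% of all genes) and 33 with the block and an offset for length and GC content (16.9%). Among them were the B-box genes BBX31 (0.70 ± 0.24, interval 0.22 to 1.17), BBX30 (0.71 ± 0.29, interval 0.116 to 1.298) and BBX32 (0.55 ± 0.22, interval 0.10 to 0.99), with edgeR adjusted p of 0.441, 0.446 and 0.444. BBX31 at 24 h was at 136, 67.7 and 130 CPM in C28PLT and 25.4, 102.5 and 50.2 CPM in C35P, which overlap. In the second experiment C28PLT was the lower of the pair. The mean difference of BBX31 was 0.42 without the third experiment and 1.07 without the second. Without the second experiment, 10 members were called, 9 of them higher in C28PLT, among 1729 of all genes. The share of members called was near the share of all genes called there, so this count does not set the members apart. Those higher in C28PLT were BBX30, BBX31, BBX32, AT5G47610, AT5G45630, CAX3, AT1G16515, CAMBP25 and AT1G18810, and ARF10 was lower. For C35P and C28P, 14 members had an unadjusted p under 0.05 (9.62% of all genes), led by AT3G14395 (-0.76 ± 0.26, interval -1.28 to -0.24, edgeR adjusted p = 0.386). DESeq2 had 16 (2278 of 29205 genes) and the replicate block 18 (12.5% of all genes). Without the third experiment the difference of AT3G14395 was -0.17, and 1 member had an unadjusted p under 0.05.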

How the data were processed

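Whole-number counts of reads for each gene in 54 libraries were deposited by the authors. The submitters' processing notes name Trimmomatic, STAR 2.7.9a, DESeq2 and the build TAIR10, and the labels' protocols a strand-marking library kit. The strand setting and the annotation version were not given in the sources used here. All 54 columns were matched to a labelled sample, and 0 were left without one. Names, upstream sequences, transcript lengths and overlaps come from RefSeq's annotation of TAIR10.1, matched by locus tag. The table itself holds no coordinates.

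CPM used column totals and a pseudocount of 1 for the rule. Tests used edgeR 4.0.16 under R 4.3.3 on all libraries, with filterByExpr (minimum count 10), TMM factors (0.7478 to 1.2074), 1 coefficient per group and a robust quasi-likelihood fit with 36 residual degrees of freedom. The p-values were adjusted by Benjamini-Hochberg over 20720 genes. SE is the standard error of a log2 difference, and 95% intervals use the moderated degrees of freedom. Alternatives used DESeq2 1.42.0, other filters and scalings, an experiment term, an offset for transcript length and GC content, and leaving out experiments or single libraries. The fit and the rule were tested on simulated data. Figures were drawn with Matplotlib 3.10.9.

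The p-values at a single time rest on the spread between the 3 libraries of a group, 1 from each independent experiment, estimated from all 18 groups together. Contrasts over several times treat the libraries of an experiment as separate. The common dispersion was 0.1197, a biological coefficient of variation of 0.346. At totals of 23408399 to 34452480 counts, counting error is the smaller part of the spread for most genes. It weighs more at the lowest values, such as AT3G48240 at 6 h (median 0.3145 CPM). The 54 pairs of libraries within groups correlated at 0.9269 to 0.9824, and none was a copy of another (lowest chi-square per degree of freedom 23.23). The labels number the libraries by independent experiment, so libraries of the same number share an experiment. The main fit has no term for it and treats them as unpaired, and the fit with the experiment as a term (replicate block) is an alternative, whose values stand beside the results that it moved. Deviations from group means correlated at a mean of 0.121 for libraries of the same experiment and -0.06 for others.

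The members and gene lists were chosen with earlier results of these data known. The text names the 20 deepest members, members called in any comparison between conditions, members on a list, the genes at ranks 99 to 102, and further members that share a family or role, with the smallest p of a comparison where none was called. The tested B-box and DUF584 genes outside the group and the families they belong to were added after their values were seen.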

Additional observations from a re-analysis of the deposited data

How the results depend on the processing

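The rule picked between 76 and 95 of the 100 members again under the settings tried. These were 89 with TMM-scaled CPM, 95 and 82 with a pseudocount of 0.5 and 5, 92 and 77 with a floor of log2(3) and log2(11), 83 to 88 without an experiment, 86, 92 and 86 without C28P, C35P and C28PLT, 77, 83 and 76 in each condition alone, and 85 after correction for length and GC content, the last chosen after seeing the data. The members' median dip of 1.51 became 1.65 with a pseudocount of 0.5 and 1.17 with one of 5, 1.55 without C35P, and 1.49 to 1.58 without an experiment. The 16 planned comparisons between conditions gave 0 members called in all 264 repeats. Among these, the replicate block (experiment as a term), with or without an offset for length and GC content, called 0 members in each comparison. It changed no call of a member and raised some counts at an unadjusted p under 0.05. The largest rise was at 24 h between C28PLT and C35P, from 1 to 15 members (3.23% and 5.25% of all genes). The added means over the 6 times gave 0 to 10 members for C28PLT and C35P and 0 to 1 (AT2G41870) for C35P and C28P when an experiment or library was left out, and 0 members under the other settings. The 10 came without the second experiment, and their share was near that of all genes called there. Over all genes, the 1 call at 0 h between C28PLT and C35P became 93 without the C35P library of experiment 3, 49 with DESeq2, and 0 and 2 with the replicate block without and with the offset. The 5 calls at 0 h between C35P and C28P became 73 and 55 without the C28P library of experiment 2 and of experiment 3 and 51 with DESeq2. ABCG22 differed by -0.61 between C35P and C28P at 2 h, uncalled, and by -0.89 to 0.0052 when an experiment or library was left out. The cause was not tested. In C28P the 9 members called higher at 24 h than at 0 h became 2 without the 0 h library of experiment 1. With 3 libraries a group, the median half-width of a member's 95% interval was 0.80 on the log2 scale at 0 h.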
